A study of Mus musculus with 6 samples.

Results

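Kdm5c and Kdm6a are X-linked genes for histone demethylases, chosen by name, and both were found among the 372 genes of the deposited tables, so 2 of 372. The source was 16.7 TST, a line of female mouse embryonic stem (ES) cells labelled wild type, from which RNA was sequenced at day 0, day 4 and day 7 as 6 libraries, a pair for each day. Day 0 cells were undifferentiated and grew with LIF on irradiated embryonic fibroblast feeders, whereas day 4 and day 7 cells had been separated from feeders and differentiated without LIF through embryoid bodies, which were moved to gelatinized plates on day 4. All groups came from this 1 line, and the labels do not explain TST. Nothing says that the 2 libraries of a day were separate cultures, so p-values measure the spread between these libraries, which may be technical. Every gene has reads of a cas and of a mus allele, and the headers of the deposited table name the cas chromosome the active X and the mus chromosome the inactive X.

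Female mammalian cells silence most genes of one X chromosome as they differentiate, and a minority of genes, called escape genes, stay partly active on the silenced chromosome. Kdm5c and Kdm6a are among the best known escape genes in both mouse and human. Kdm5c (also Jarid1c or Smcx) encodes an enzyme that removes methyl groups from lysine 4 of histone H3, a mark of active promoters, and loss of the human gene causes intellectual disability. Kdm6a (also Utx) encodes an enzyme that removes methyl groups from lysine 27 of histone H3, the Polycomb mark that also builds up on the inactive X, and its protein works inside complexes that methylate lysine 4. Both have Y-linked relatives in males, Kdm5d and Uty, and how reads that fit a gene and its relative were counted is not given in the sources used here.

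The 2 genes lie far apart on chromosome X of the GRCm38 annotation. Kdm5c (ENSMUSG00000025332.14) spans chrX:152233020-152274535 on the plus strand, with up to 26 exons in a transcript model. Kdm6a (ENSMUSG00000037369.17) spans chrX:18162575-18279936 on the plus strand, with up to 29 exons. No other annotated gene overlaps either of them, on either strand. The promoter windows are shown because the mus share of both genes fell less than that of the median gene, and a link to the promoters was not tested. The windows run from 250 bases before to 50 bases after the RefSeq start (GRCm38.p6, plus strand). For Kdm6a that start is the lower coordinate of the span above. For Kdm5c it lies inside the span, so most of the Kdm5c window lies within the annotated gene. The 2 windows are therefore not placed alike against the annotated genes. Capitals mark the motifs found in a search of both strands for AANATGGC (the core of the YY1 motif), CACGTG (an E-box), GGGCGG (a GC box), CCAAT and TATAAA, and no match overlapped another.
Kdm5c, chrX:152232977-152233276: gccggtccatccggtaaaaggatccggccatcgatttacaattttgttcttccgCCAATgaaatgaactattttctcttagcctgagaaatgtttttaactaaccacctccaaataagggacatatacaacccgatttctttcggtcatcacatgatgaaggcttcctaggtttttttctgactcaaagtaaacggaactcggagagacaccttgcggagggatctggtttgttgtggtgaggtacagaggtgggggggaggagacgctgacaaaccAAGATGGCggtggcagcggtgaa
Kdm6a, chrX:18162325-18162624: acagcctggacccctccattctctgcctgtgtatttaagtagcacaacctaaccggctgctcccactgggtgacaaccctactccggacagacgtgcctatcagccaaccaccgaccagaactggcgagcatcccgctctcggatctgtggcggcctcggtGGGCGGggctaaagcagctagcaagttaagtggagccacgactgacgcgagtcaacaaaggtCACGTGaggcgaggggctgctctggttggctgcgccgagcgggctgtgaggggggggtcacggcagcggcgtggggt
The Kdm5c window held CCAAT at position -196 from the start and AAGATGGC at position 28, and the Kdm6a window held GGGCGG at position -89 and CACGTG at position -27; TATAAA was in neither. Among 32851 mouse promoter windows of this length, 6.05% held AANATGGC, 37.4% CCAAT, 35.7% GGGCGG, 7.15% CACGTG and 13.6% TATAAA. In the 411 such windows of 320 genes in the tables the shares were 9.98%, 43.6%, 60.6% and 11.2% for the first 4 of these motifs, and 37 windows held TATAAA. The Kdm6a window was richer in CG dinucleotides, with 21 of them and 63% G or C, while the Kdm5c window had 13 and 47%. The median was 15 CG dinucleotides over the windows of the tables, between the 2 promoters, and 7 over all mouse windows, below both. The 2 windows, which are placed differently against the annotated spans, shared none of the motifs searched.

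The libraries held between 69742 and 160218.5 allele-specific reads over all 372 genes, with the fewest at day 7. Kdm5c gave many reads and Kdm6a few. Kdm5c had 2526.5 and 2984 allele-specific reads (day 0), 2306 and 2377 (day 4), and 1213.5 and 1157 (day 7). Kdm6a had 289 and 252.5 at day 0, 542 and 539.5 at day 4, but only 43.5 and 30 at day 7, so its day 7 shares are imprecise. Of 6 X-linked genes listed as pluripotency markers, 4 fell and 2 rose at day 7 against day 0 in limma, where 54.0% of all genes fell and 30.9% rose. The orphan nuclear receptor gene Nr0b1 averaged 324 TPM at day 0, 67.6 at day 4 and 13.8 at day 7, where TPM is transcript abundance corrected for gene length and library depth. Of 7 measured X-linked fibroblast markers, 5 had more mus than cas reads at day 0 and none fewer in edgeR, where 9.68% of all genes had more. At day 4 against day 0 the markers were divided in limma, with 2 higher, 3 lower and 2 not passing (41.4% and 40.6% of all genes were higher and lower). The matrix proteoglycan gene Bgn was at 99.9% mus at day 0, and had 1.89 TPM at day 4, against 90.8 TPM at day 0. The summed TPM of these markers was 909 and 883 at day 0, 634 and 657 at day 4, and 941 and 932 at day 7, with no mean at 0. The part of feeder RNA in the day 0 values of Kdm5c and Kdm6a was not tested.

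Before differentiation both genes were read from both alleles in nearly equal amounts. The mus share, the percent of a gene's allele-specific reads that came from the mus allele, was 53.2% and 51.6% for Kdm5c in the day 0 libraries (Wilson 95% intervals 51.2% to 55.1% and 49.8% to 53.4%, which cover counting error only). For Kdm6a it was 53.5% and 47.5%, with intervals of 47.7% to 59.1% and 41.4% to 53.6%. The Kdm5c libraries both lay above an equal share, while those of Kdm6a fell on either side of it. The log2 odds of mus to cas reads were 0.14 ± 0.05 for Kdm5c (SE, adjusted p = 0.0354, quasi-likelihood test of edgeR, adjusted by Benjamini-Hochberg over 372 genes) and 0.04 ± 0.13 for Kdm6a (adjusted p = 0.878 in the same edgeR test). At day 0 this test called 29.0% of all genes unequal, 9.68% with more mus reads. The Kdm5c excess was lost in limma on the empirical logit (adjusted p = 0.357), in DESeq2 (0.612) and when day 0 replicate 1 (0.580) or replicate 2 (0.196) was left out, over a range of 4.93e-06 to 0.612 in all alternatives.

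**Figure D1:**
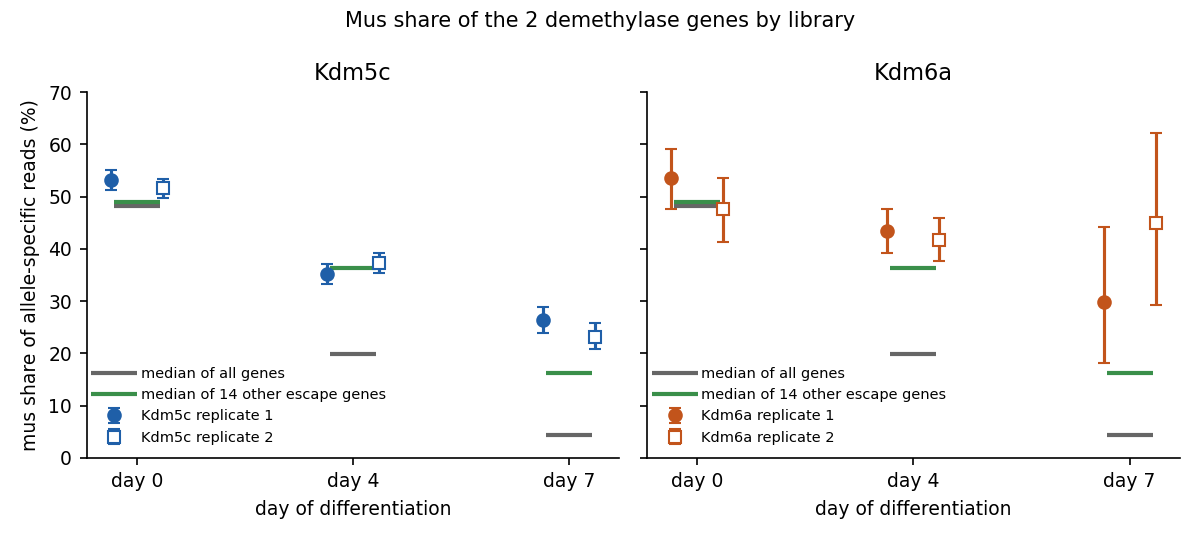
Mus share of allele-specific reads (%, y axis) of Kdm5c (left) and Kdm6a (right) in each library by day (x axis), with Wilson 95% intervals as error bars. Green dashes are the median of 14 other escape genes and grey dashes the median of all 372 genes; Kdm5c fell to 26.3% and 23.2% by day 7, and Kdm6a was at 29.9% and 45.0% with wide intervals.

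By day 4 both genes had lost mus reads relative to cas reads, with smaller changes than that of the median gene. In these bulk libraries, fewer cells that use the mus allele and less mus RNA per cell cannot be told apart. Kdm5c had mus shares of 35.2% and 37.2% at day 4, against 53.2% and 51.6% at day 0. Kdm6a had 43.4% and 41.6% at day 4, against 53.5% and 47.5% at day 0. The odds of mus to cas reads changed by -0.95 ± 0.08 on the log2 scale for Kdm5c (SE, adjusted p = 1.27e-32, edgeR, Benjamini-Hochberg) and by -0.47 ± 0.16 for Kdm6a (adjusted p = 0.00452, same edgeR test). Both therefore passed, as did 88.4% of all genes in this direction, and the median gene changed by -1.82. The Kdm6a call was lost in limma on the empirical logit (adjusted p = 0.275), in DESeq2 (0.175) and without day 0 replicate 1 (0.219), its alternatives ranging from 9.94e-16 to 0.275.

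Between day 4 and day 7 Kdm5c fell further, and Kdm6a could not be resolved. Kdm5c was at 26.3% and 23.2% mus at day 7, against 35.2% and 37.2% at day 4, a log2 odds change of -0.78 ± 0.09 (SE, adjusted p = 1.38e-16, edgeR, Benjamini-Hochberg). Kdm6a was at 29.9% and 45.0% at day 7, with Wilson intervals of 18.2% to 44.2% and 29.2% to 62.2%, against 43.4% and 41.6% at day 4. The day 7 libraries of Kdm6a thus lay on both sides of the day 4 pair, and the change of -0.39 ± 0.37 did not pass (adjusted p = 0.348, same edgeR test). In this comparison 66.9% of all genes fell.

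Over the whole week the mus share averaged 52.4% ± 1.13 at day 0, 36.2% ± 1.46 at day 4 and 24.8% ± 2.21 at day 7 for Kdm5c (SD, n = 2 per day). The order of the days was the same in every pair of Kdm5c libraries, and neighbouring days were separated by more than their spread. The median gene had the same order, with 48.1% and 48.2% at day 0, 19.7% and 19.9% at day 4, and 4.08% and 4.61% at day 7. For Kdm6a the averages were 50.5% ± 4.20, 42.5% ± 1.23 and 37.4% ± 10.7, and its day 7 libraries lay below both day 0 libraries but on either side of the day 4 pair. The log2 odds at day 7 against day 0 changed by -1.73 ± 0.09 for Kdm5c (SE, adjusted p = 1.62e-73, edgeR, Benjamini-Hochberg) and by -0.86 ± 0.38 for Kdm6a (adjusted p = 0.0258, same edgeR test), where 89.5% of all genes fell and the median gene changed by -4.13. The Kdm6a call was lost in limma on the empirical logit (adjusted p = 0.0828), in DESeq2 (0.0832) and on leaving out day 0 replicate 1 (0.105) or day 7 replicate 1 (0.590), its alternatives ranging from 1.1e-10 to 0.590. Relative to each library's median gene, the odds of Kdm5c were higher by 2.19 and those of Kdm6a by 3.06 at day 7 than at day 0, a scale on which 16.9% of all genes were higher.

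The cas allele supplied more reads than the mus allele of both genes once differentiation had begun. At day 4 the log2 odds of mus to cas reads were -0.82 ± 0.06 for Kdm5c (SE, adjusted p = 1.01e-44, edgeR, Benjamini-Hochberg) and -0.44 ± 0.10 for Kdm6a (adjusted p = 6.61e-06, same edgeR test), and 94.1% of all genes were lower on the mus side. The Kdm6a call at day 4 was lost in limma (adjusted p = 0.147) and DESeq2 (0.0560), among alternatives from 1.99e-47 to 0.147. At day 7 the odds were -1.60 ± 0.07 for Kdm5c (adjusted p = 7.41e-95, same edgeR test) and -0.83 ± 0.36 for Kdm6a (adjusted p = 0.0220), with 92.2% of all genes lower on the mus side. Without day 7 replicate 1 the Kdm6a value was -0.28 with an adjusted p of 0.629, the highest of its alternatives, which began at 2.96e-12.

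The mus shares of the 2 genes differed from each other in a way that was not settled by 6 libraries. Kdm6a had the higher mus share in 5 of 6 libraries, by 8.19 and 4.38 percentage points at day 4 and by 3.56 and 21.8 at day 7, while at day 0 the differences were 0.284 and -4.05. The mean difference of Kdm6a minus Kdm5c in log2 odds was 0.38 ± 0.58 (SD, n = 6), with p = 0.0938 in an exact two-sided sign-flip permutation test, whose smallest possible value was 0.0312. Within the fit across all genes, the change at day 4 against day 0 was less negative for Kdm6a than for Kdm5c by 0.48 ± 0.18 (combined SE, 95% interval 0.13 to 0.83 by the t quantile of the test's degrees of freedom, as for all fitted differences). At day 7 against day 0 that difference was 0.87 ± 0.39 (interval 0.11 to 1.64), and at day 7 against day 4 it was 0.39 ± 0.38 (interval -0.36 to 1.14). These intervals are not adjusted for the number of comparisons.

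Total expression in TPM fell in both genes, on different schedules, although the day 4 step of Kdm6a had the opposite direction in allele-specific reads. Kdm5c had 179 and 169 TPM at day 0, 112 and 115 at day 4, and 116 and 115 at day 7, so the fall came by day 4 and the level then stayed between 112 and 116 TPM. Kdm6a had 127 and 121 TPM at day 0, 105 and 109 at day 4, and 53.2 and 52.5 at day 7, so most of its fall came after day 4. Kdm5c was the more abundant of the 2 in every library.

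At day 4 against day 0 the change in log2(TPM + 1) was -0.61 ± 0.05 for Kdm5c (SE, adjusted p = 2.73e-05, limma with Benjamini-Hochberg adjustment) and -0.21 ± 0.05 for Kdm6a (adjusted p = 0.0080, same limma test), among 40.6% of all genes that fell. At day 7 against day 4 Kdm6a changed by -1.01 ± 0.05 (adjusted p = 1.2e-06, same limma test), among 60.5% of genes that fell, and Kdm5c by 0.02 ± 0.05 (adjusted p = 0.725). Over the week, day 7 against day 0, the changes were -0.59 ± 0.05 for Kdm5c (adjusted p = 2e-05, same limma test) and -1.22 ± 0.05 for Kdm6a (adjusted p = 3.26e-07), where 54.0% of genes fell and the median gene changed by -0.37. Kdm6a minus Kdm5c was 0.40 ± 0.07 at day 4 against day 0 (combined SE, 95% interval 0.22 to 0.58) and -1.03 ± 0.07 at day 7 against day 4 (interval -1.20 to -0.85), so the schedules differed by more than the errors of the fit. The TPM of the day 7 pair differed little. Per gene their log2 difference followed exactly from those of the day 0 and day 4 pairs (R squared = 1), so these p-values may be too small. In allele-specific reads the R squared was 0.0089. Whether the deposited TPM had been processed further was not tested, so the TPM levels and the allele parts made from them carry the same limit.

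**Figure D2:**
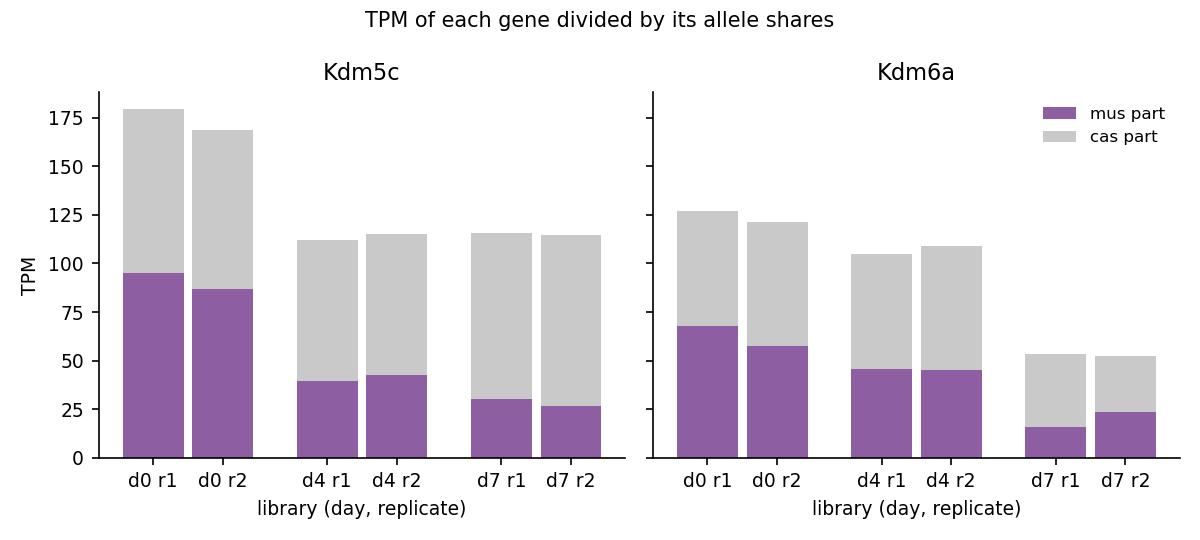
TPM (y axis) of Kdm5c (left) and Kdm6a (right) in the 6 libraries (x axis, day and replicate), each bar divided into the mus part (purple) and the cas part (grey) by the gene's mus share. The grey part of Kdm5c stayed between 72.2 and 88.1 TPM, and that of Kdm6a was lowest in the day 7 libraries at 37.3 and 28.9 TPM.

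The allele-specific reads gave another picture of Kdm6a at day 4. Per 10000 allele-specific reads of the tables, Kdm6a had 25.4 and 20.3 at day 0, 33.8 and 33.7 at day 4, and 6.11 and 4.30 at day 7. These reads were thus highest at day 4, when the TPM was below that of day 0. An edgeR test on these reads scaled the libraries by edgeR's trimmed mean (TMM) factors, so its changes need not equal those per 10000 reads. In this edgeR test Kdm6a changed by 0.42 at day 4 against day 0 (adjusted p = 0.0122, Benjamini-Hochberg), among 37.1% of genes that rose. That direction was opposite to its TPM. The adjusted p-values of all alternatives for this comparison ranged from 0.0040 to 0.0549. The TPM call itself was lost without day 4 replicate 1 (adjusted p = 0.0549, limma). Both measures were lower at day 7 than at day 0, with a log2 change of -1.93 in reads (adjusted p = 3.96e-08, same edgeR test, among 39.0% of genes that fell) and -1.22 in TPM. At day 7 against day 4 the reads of Kdm6a changed by -2.36 (adjusted p = 1.27e-09, same edgeR test, among 39.5% of genes that fell), beside -1.01 in TPM. The log2 ratio of reads to TPM changed by 0.78 for Kdm6a at day 4 against day 0 and by -1.70 at day 7 against day 4, where the 5th and 95th percentiles over all genes were -0.53 and 1.04, and -1.79 and 1.05. For Kdm5c these ratio changes were -0.05 and 0.18, close to the medians of 0.04 and 0.12. Its reads per 10000 were 222 and 240 at day 0, 144 and 149 at day 4, and 170 and 166 at day 7. In the read-based test Kdm5c rose by 0.53 at day 7 against day 4 (adjusted p = 7.61e-05, same edgeR test), among 38.2% of genes, while its TPM changed by 0.02. The median gene changed by -0.01 in that test and by -0.50 in TPM at this step, and Kdm5c lay above it in both. Over the week its reads changed by -0.27 (adjusted p = 0.0203, same edgeR test), beside -0.59 in TPM. The median gene changed by -0.11 in reads and by -0.37 in TPM over the week, and Kdm5c lay below it in both.

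Multiplying each gene's TPM by its allele shares divides the expression between the chromosomes. For Kdm5c the mus part was 95.3 and 86.9 TPM at day 0, 39.4 and 42.8 at day 4, and 30.5 and 26.6 at day 7. Its cas part was 83.9 and 81.6 TPM at day 0, 72.7 and 72.2 at day 4, and 85.3 and 88.1 at day 7. Thus the mus part fell on both steps, while the cas part was lowest in the day 4 libraries. In both day 7 libraries the cas part was above both day 0 libraries, a direction that was opposite in cas reads. On the log2 scale the median gene changed by 0.46 in cas TPM and by -0.17 in cas reads at this comparison. Kdm5c lay below the median gene in both. For Kdm6a the mus part was 67.9 and 57.6 TPM at day 0, 45.5 and 45.4 at day 4, and 15.9 and 23.6 at day 7. Its cas part was 59.1 and 63.6 TPM at day 0, 59.5 and 63.7 at day 4, and 37.3 and 28.9 at day 7, so it held through day 4 and was lower afterwards. The median gene rose by 0.59 on the log2 scale in cas TPM at day 4 against day 0, where Kdm6a changed by 0.006 and Kdm5c by -0.19. In cas reads these changes were 0.19, 0.24 and -0.79.

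In means, day 7 minus day 0 was -58.6 TPM for Kdm5c, made up of -62.6 TPM on the mus side and 3.93 TPM on the cas side. For Kdm6a it was -71.3 TPM, of which -43.0 TPM was mus and -28.3 TPM cas. On this TPM scale the mus parts ended at 31.3% of their day 0 level for Kdm5c and 31.5% for Kdm6a, which was not so in mus reads. The Kdm6a figure averages day 7 parts of 15.9 and 23.6 TPM that rest on 13 and 13.5 mus reads, so its nearness to the Kdm5c figure is imprecise. The cas parts ended at 105% for Kdm5c and 53.9% for Kdm6a.

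In limma's test of these parts on log2(TPM + 1), the mus part changed at day 7 against day 0 by -1.64 ± 0.12 for Kdm5c (SE, adjusted p = 4.9e-05, Benjamini-Hochberg) and by -1.64 ± 0.21 for Kdm6a (adjusted p = 0.000458), among 92.5% of genes that fell. The 95% interval of the difference between the 2 genes ran from -0.60 to 0.60. Scaled to the summed cas reads of the tables, the mus reads changed by -2.34 for Kdm5c (adjusted p = 1.79e-81, edgeR) and by -3.39 for Kdm6a (adjusted p = 1.11e-36, edgeR), among 93.3% of genes that fell. In these reads Kdm6a minus Kdm5c was -1.05 ± 0.28 (combined SE, interval -1.60 to -0.50), so Kdm6a fell further. By day 4 the mus part of Kdm5c had changed by -1.13 (adjusted p = 0.0012, limma), among 71.5% of genes that fell. The change of -0.45 ± 0.21 for Kdm6a did not pass in limma (adjusted p = 0.0926), although it did without day 7 replicate 1 (0.0116) or replicate 2 (0.0117). Mus reads changed at this step by -1.74 for Kdm5c (adjusted p = 5.47e-55, edgeR, among 86.8% of genes that fell) and by -0.24 for Kdm6a (adjusted p = 0.156, edgeR). Both mus parts fell at day 7 against day 4, with -0.51 for Kdm5c (adjusted p = 0.00953, limma, and 0.0587 without day 4 replicate 2) and -1.19 for Kdm6a (adjusted p = 0.00261), among 80.6% of genes. Mus reads at that step changed by -0.60 for Kdm5c (adjusted p = 2.53e-07, edgeR) and by -3.15 for Kdm6a (adjusted p = 6.64e-33, edgeR), among 80.9% of genes.

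The cas part separated the 2 genes. In Kdm6a it changed at day 7 against day 0 by -0.88 ± 0.13 (SE, adjusted p = 0.00152, limma with Benjamini-Hochberg adjustment), where 30.4% of genes fell, and that of Kdm5c by 0.07 ± 0.05 (adjusted p = 0.248), while the median gene rose by 0.46. The difference of Kdm6a minus Kdm5c was -0.95 ± 0.14 (combined SE, 95% interval -1.30 to -0.59). At day 4 against day 0 the cas part of Kdm5c changed by -0.19 ± 0.05 (adjusted p = 0.0164, limma), among 12.9% of genes that fell. Its cas reads changed more, by -0.79 (adjusted p = 9.09e-08, edgeR, among 30.6% of genes that fell). The TPM call was lost in limma with the day 7 pair counted as 1 library (adjusted p = 0.0589) and without day 4 replicate 1 (0.0625) or 2 (0.0702) or day 7 replicate 1 (0.0587) or 2 (0.0588). The adjusted p-values of its alternatives ran from 9.09e-08 to 0.0702. Then, at day 7 against day 4, the cas part of Kdm5c rose by 0.26 ± 0.05 (adjusted p = 0.00497, limma), among 32.8% of genes. The call was lost without day 7 replicate 2 (adjusted p = 0.0610, limma) and in edgeR on cas reads (0.0672). That of Kdm6a changed by -0.89 ± 0.13 (adjusted p = 0.00188, limma), among 47.6% that fell, and its cas reads by -2.76 (adjusted p = 8.76e-11, edgeR, among 48.4% that fell). Cas reads were also scaled to the summed cas reads of the tables. At day 7 against day 0 those of Kdm5c changed by -0.60 (adjusted p = 3.73e-06, edgeR), among 40.9% of genes that fell. The sign was opposite to that of its cas TPM, but the median gene changed by -0.17 in these reads and by 0.46 in cas TPM. Kdm5c lay below the median gene on both scales. The cas reads of Kdm6a changed by -2.53 (adjusted p = 1.1e-09, edgeR).

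**Figure D3:**
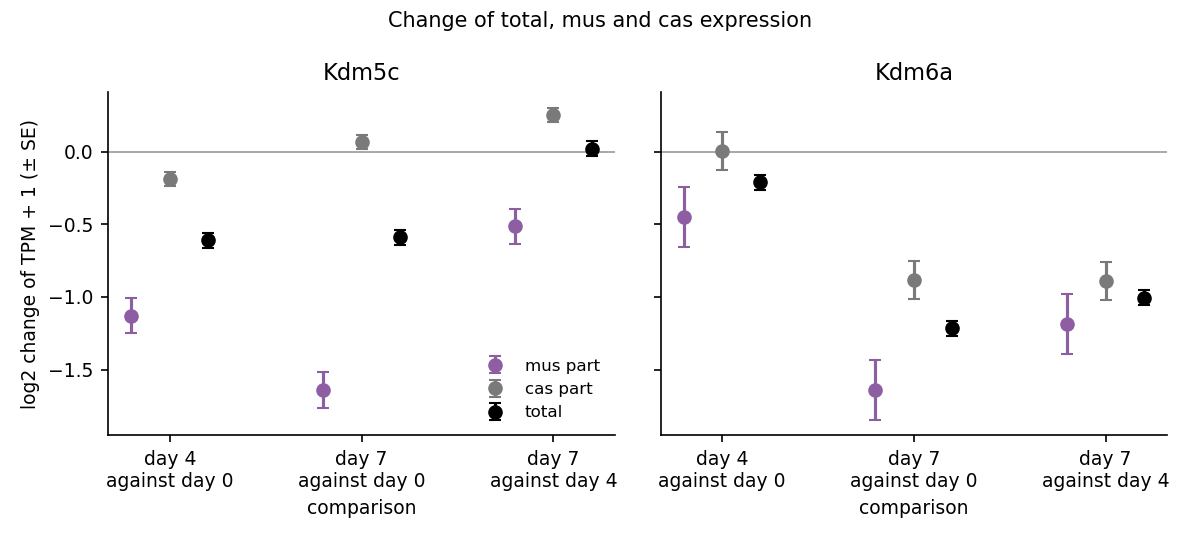
Change in log2(TPM + 1) with its SE (y axis) of the mus part (purple), the cas part (grey) and the total (black) of Kdm5c (left) and Kdm6a (right) in the 3 comparisons of days (x axis). The cas part of Kdm5c lies near 0 at day 7 against day 0, where that of Kdm6a lies at -0.88.

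Among the other X-linked genes of chromatin, as among all genes of the tables, few had as high a mus share from day 4 on. The list of 23 measured members holds demethylases, other histone enzymes, subunits of chromatin complexes, remodellers and readers, transcription machinery and cohesin, and without Kdm5c and Kdm6a it has 21. The median mus share of these 21 was 48.7% at day 0, 18.1% at day 4 and 5.44% at day 7. Of the 21, 2 lay above Kdm5c at day 4 and 1 at day 7, and none above Kdm6a on either day. Among all genes with at least 10 reads in a library, Kdm5c ranked 36th and 38th of 366 at day 4. At day 7 it ranked 15th of 319 and 18th of 318. Kdm6a ranked 10th and 20th at day 4 and 10th and 5th at day 7. All 21 fell at day 7 against day 0 in edgeR as did 89.5% of all genes, and the median log2 odds change was -4.26, beside -4.13 over all genes. At day 4 against day 0, 19 of 21 fell, beside 88.4% of all genes, and 2 did not pass, Taf1 and Suv39h1.

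Phf8, the third demethylase of the list, which acts on lysine 9 of histone H3 among other sites, differed from both. Its mus share averaged 52.1% ± 4.09 at day 0, 18.0% ± 2.23 at day 4 and 5.44% ± 1.43 at day 7 (SD, n = 2 per day). The odds change of Kdm5c at day 7 against day 0 was less negative than that of Phf8 by 2.53 ± 0.26 (combined SE, 95% interval 2.02 to 3.04), and that of Kdm6a by 3.40 ± 0.45 (interval 2.52 to 4.29). Ogt, which encodes the O-GlcNAc transferase, had a mean mus share above Kdm5c at day 7, with 50.2% ± 0.314 at day 0, 36.9% ± 0.178 at day 4 and 36.1% ± 1.20 at day 7. Its change at day 7 against day 0 was less negative than that of Kdm5c, with Kdm5c minus Ogt at -0.90 ± 0.15 (interval -1.19 to -0.61), whereas Kdm6a minus Ogt was -0.03 ± 0.40 (interval -0.81 to 0.75). The histone methyltransferase gene Suv39h1 followed at 21.8% ± 3.37 at day 7, with 12.5 reads per library at day 0. Rbbp7, a histone-binding subunit of Polycomb and deacetylase complexes, had no mus read among the 23 allele-specific reads of both day 7 libraries, which allows a share of up to 13%. At day 7 against day 0 the interval of the difference lay above 0 for Kdm5c against 15 of the 21 and below 0 against 1, and for Kdm6a above 0 against 16 and below 0 against none. Among all 372 genes the changes of Kdm5c and Kdm6a ranked 337th and 349th from the lowest, so most genes of the tables fell further. A contrast particular to chromatin genes was not tested.

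In total expression the list was divided, with 6 of the 21 higher, 11 lower and 4 not passing at day 7 against day 0 in limma (30.9% and 54.0% of all genes were higher and lower), and a median change of -0.42 beside -0.37 over all genes. Suv39h1 averaged 35.9 TPM at day 0, 126 at day 4 and 260 at day 7, and the chromatin remodeller gene Atrx 278, 184 and 36.6 TPM. Hcfc1, a cofactor of lysine 4 methyltransferase complexes, had 364, 244 and 232 TPM, a course like that of Kdm5c with its fall before day 4. Phf8 had 62.1, 55.1 and 45.2 TPM.

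**Figure D4:**
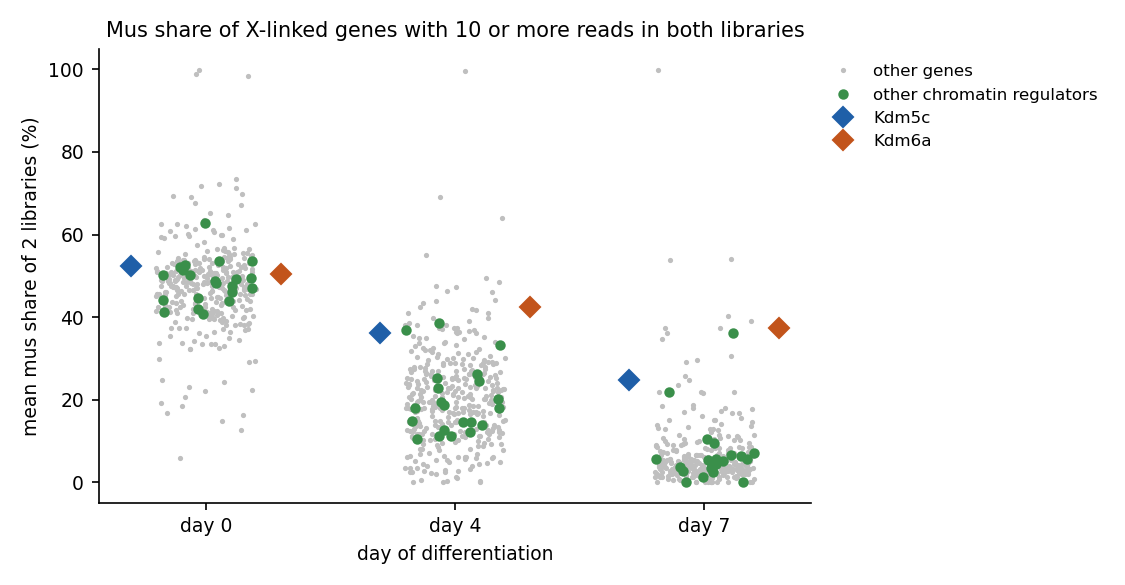
Mean mus share of 2 libraries (%, y axis) of genes with at least 10 allele-specific reads in both libraries of a day (x axis). Blue and orange diamonds are Kdm5c and Kdm6a, green points other chromatin regulators and grey points the remaining genes; from day 4 on both diamonds lie above most points.

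Among other escape genes the place of the 2 demethylases changed with the day. The 14 other measured genes of the escape list had median mus shares of 48.9%, 36.3% and 16.1% on days 0, 4 and 7, with a range at day 7 of 1.22% to 99.8%. At day 0, 6 of the 14 lay above Kdm5c and 6 above Kdm6a. At day 4, 7 lay above Kdm5c, whose 36.2% was close to their median, and 3 above Kdm6a. At day 7, 5 lay above Kdm5c and 2 above Kdm6a, the noncoding RNA genes Xist and Jpx. By rank among genes with at least 10 reads in a library, Kdm6a was 83rd and 191st of 350 and 352 at day 0, 10th and 20th of 366 at day 4, and 10th and 5th of 319 and 318 at day 7. Kdm5c was 88th and 109th at day 0, 36th and 38th at day 4, and 15th and 18th at day 7. Both genes therefore moved up in the order as the other genes lost mus reads. In the fit at day 7 against day 0, the interval of Kdm5c minus the other gene lay above 0 against 7 of the 14 and below 0 against 2, Ddx3x and Xist, and that of Kdm6a above 0 against 9 and below 0 against 1, Xist. These changes ranked 337th for Kdm5c and 349th for Kdm6a from the lowest among all 372 genes. The same intervals against all genes were not counted.

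The pattern of mus shares most like Kdm5c, by root mean square difference over the 6 libraries, belonged to the RNA helicase gene Ddx3x (3.87 percentage points), the ribosomal protein gene Rpl10 (4.09), 5530601H04Rik (4.16), the ribosome assembly gene Utp14a (4.38) and the ubiquitin-activating enzyme gene Uba1 (4.39). For Rpl10 the shares rest on as few as 10.5 reads in a library. Most like Kdm6a were Nexmif (3.83), Pnma5 (4.47), the ribosomal protein gene Rps4x (5.82), Ogt (6.19) and Utp14a (7.27), with as few as 29.5 reads for Nexmif and 22 for Pnma5. Utp14a was thus near both. By total expression the closest to Kdm5c were Otud5, Pqbp1, Tsr2, AA414768 and AU015836, with Pearson's r of log2(TPM + 1) between 0.991 and 0.997 over 6 libraries. The closest to Kdm6a were 1700013H16Rik, Txlng, Slc7a3, Pdzd4 and Dkc1, with r that rounded to 0.999 or above. These correlations describe 3 days with 2 libraries each, and 5 names out of 371 other genes must come out high.

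Kdm5c had a higher mus share than the measured genes around it at day 4 and day 7. Of 14 measured genes whose lower coordinate lies within 1 Mb of its own, 13 fell in mus share at day 4 and 13 at day 7 against day 0 (edgeR, where 88.4% and 89.5% of all genes fell), with Foxr2 not passing at either time. Among the neighbours with a mean of at least 10 reads, the mus share ran from 41.9% to 69.3% over 14 genes at day 0, from 5.22% to 29.6% over 14 genes at day 4, and from 2.44% to 9.43% over 10 genes at day 7. Kdm5c averaged 52.4%, 36.2% and 24.8% and was therefore inside the range at day 0 and above it at day 4 and day 7. Iqsec2, an exchange factor gene at -88.8 kb (distances run between the lower annotated coordinates), averaged 69.3% ± 4.62 at day 0, 18.1% ± 6.0 at day 4 and 2.50% ± 3.54 at day 7 (SD, n = 2 per day). Tspyl2, at 103.8 kb, averaged 46.6% ± 2.69, 20.7% ± 1.78 and 3.69% ± 0.494 on the same days. Kantr, at 61.8 kb, averaged 59.6% ± 6.36, 28.9% ± 2.68 and 5.56% ± 7.86, the last from 9.25 reads per library.

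The odds change of Kdm5c at day 7 against day 0 was less negative than that of its neighbour Tspyl2 by 2.76 ± 0.26 (combined SE, 95% interval 2.24 to 3.28), that of Hsd17b10, a mitochondrial dehydrogenase gene, by 2.07 ± 0.28 (interval 1.52 to 2.63), and that of Huwe1, a ubiquitin ligase gene, by 1.72 ± 0.13 (interval 1.47 to 1.97). The interval lay above 0 for 11 of the 14 neighbours, and the remaining 3, Foxr2, Rragb and Usp51, had at most 8.5 reads per library at day 7. The Kdm5c change ranked 337th from the lowest among all 372 genes, so most genes of the tables fell further, wherever they lie. Whether the neighbours differed from other genes in this respect was not tested. For Kdm6a only Fundc1 was measured within 1 Mb, at -606.0 kb. Its mus share averaged 54.1% ± 0.706 on day 0, 21.4% ± 3.59 on day 4 and 4.17% ± 5.89 on day 7, where it had 7.25 reads per library. The change of Kdm6a was less negative than that of Fundc1 by 1.68 ± 0.47 at day 4 against day 0 (interval 0.76 to 2.60).

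**Figure D5:**
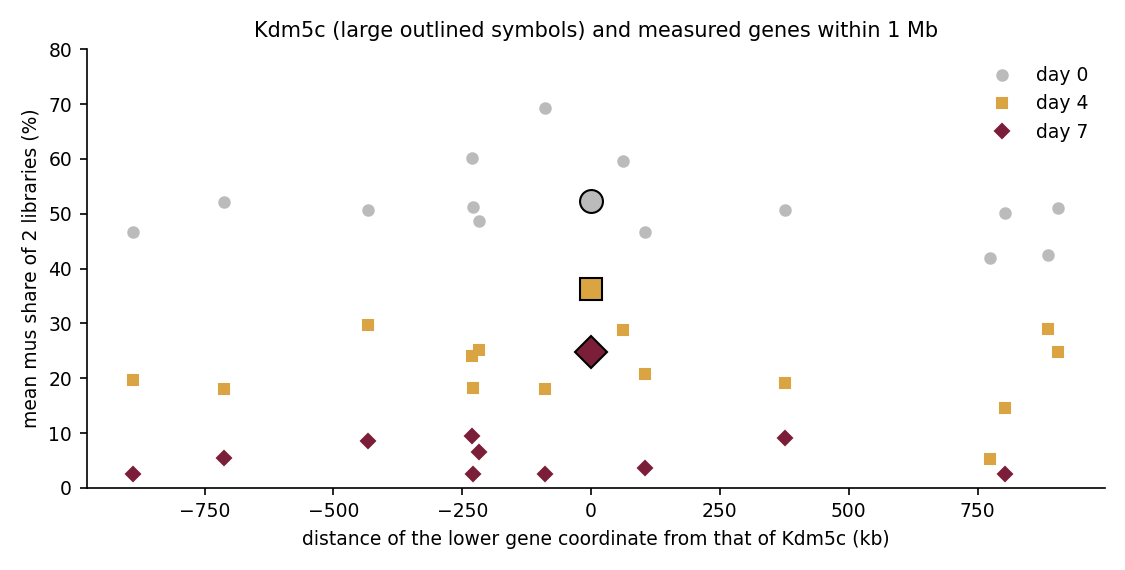
Mean mus share of 2 libraries (%, y axis) of Kdm5c (large outlined symbols at 0) and of measured genes by the distance of their lower coordinate from that of Kdm5c (kb, x axis), at day 0 (circles), day 4 (squares) and day 7 (diamonds), for genes with a mean of at least 10 reads on that day. At day 7 the neighbours lie between 2.44% and 9.43% and Kdm5c at 24.8%.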

How the data were processed

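Per the labels, libraries came from rRNA-depleted total RNA with directional second-strand synthesis. The authors deposited allele-specific reads as estimated counts in steps of 0.5, the fraction of each allele, and TPM for the same 372 genes, all on chromosome X of GENCODE M21. The deposited fraction equalled the share from the counts within 5.0e-16. The tools named in the submitters' processing notes are STAR, HOMER 4.10, Trim Galore 0.4.1, limma and edgeR, and the builds GRCm38 and mm10. Their roles, the strand setting and the choice of the 372 genes are not stated there.

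Counts were rounded and both alleles of all 6 libraries fitted in edgeR 4.0.16 (quasi-likelihood, library terms, an allele term per day, no scaling between alleles, mean of at least 10 reads, met by all 372 genes). The prior degrees of freedom were infinite, so all genes shared 1 estimate of spread. TPM, and TPM times allele share, were tested with limma 3.58.1 on log2(TPM + 1). Intervals of fitted differences used the t quantile of each test's degrees of freedom. P-values were adjusted by Benjamini-Hochberg over all genes and called at 0.05. Both tests were checked on simulated data, with only counting error between libraries for the reads and equal independent noise for the TPM. Such a check cannot cover extra spread between libraries, or a day 7 TPM pair that follows from the other pairs. DESeq2 1.42.0, limma on the empirical logit with 0.5 reads added, and other settings were alternatives. Rank and neighbour descriptions used genes with at least 10 reads. Named genes were the 2 members, the 5 genes most like each by share and by TPM, measured genes within 1 Mb, and 2 lists (chromatin regulators, escape genes), from which the highest and lowest and genes of related function are given; of fibroblast and pluripotency markers 1 each is named. Members and lists were chosen with earlier results of these data known. Scripts ran in R 4.3.3 and Python 3.11.15 (scipy 1.17.1, pandas 2.3.3).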

Additional observations from a re-analysis of the deposited data

How the results depend on the processing

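Of the values recomputed under each alternative, those on the mus share of Kdm5c against another day kept their direction and call except relative to each library's median gene, a scale on which most genes that lost fewer mus reads than the median are higher by construction. There the log2 odds changes were 0.93 for Kdm5c and 1.41 for Kdm6a at day 4 against day 0, 2.19 and 3.06 at day 7 against day 0, and 1.26 and 1.65 at day 7 against day 4, with 151, 101 and 68 genes called. Within days they were 1.17 and 1.55 at day 4 and 2.43 and 3.21 at day 7, where 116 genes were called. For Kdm6a, calls were lost at day 4 against day 0 in limma on the empirical logit (-0.46) and DESeq2 (-0.46), at day 7 against day 0 in the same order (-0.77 and -0.84), and for mus against cas reads at day 4 (-0.44 and -0.44). The day 0 excess of mus reads of Kdm5c was lost in both (0.14 each), where 22 and 37 genes were called in place of 108. Leaving out 1 library gave -0.63 to -0.29 for Kdm6a at day 4 against day 0, -1.29 to -0.32 at day 7 against day 0, -0.81 to 0.16 at day 7 against day 4, and within days -0.15 to 0.20 at day 0 and -1.25 to -0.28 at day 7. For Kdm5c at day 0 it gave 0.091 to 0.18, with 60 to 111 genes called. For total expression, edgeR on summed allele-specific reads gave 0.42 for Kdm6a at day 4 against day 0 and 0.53 for Kdm5c at day 7 against day 4. In TPM these changes were -0.21 and 0.02, and leaving out 1 library gave -0.24 to -0.18 for Kdm6a at day 4 against day 0. In the cas part, edgeR on cas reads gave -0.60 (day 7 against day 0), 0.19 (day 7 against day 4) and -0.79 (day 4 against day 0) for Kdm5c, and -2.53, -2.76 and 0.24 for Kdm6a. Counting the day 7 pair as 1 library, an alternative chosen after seeing the data, gave -0.19 for Kdm5c (day 4 against day 0). Leaving out 1 library gave -0.21 to -0.17 (day 4 against day 0) and 0.23 to 0.28 (day 7 against day 4) for Kdm5c, and -0.046 to 0.058 for Kdm6a at day 4 against day 0. In the mus part the day 7 pair as 1 library gave -0.45 for Kdm6a at day 4 against day 0, where leaving out 1 library gave -0.57 to -0.33, and -0.61 to -0.42 for Kdm5c at day 7 against day 4. EdgeR on mus reads gave, in the same order of comparisons as on cas reads, -2.34, -0.60 and -1.74 for Kdm5c and -3.39, -3.15 and -0.24 for Kdm6a. The cause of these changes was not tested. The labels number the replicates alike on each day, but deviations of equal numbers did not go together in every pair of days (correlations of log2 odds -0.10, 0.06 and -0.13, and of log2 TPM -0.01, 0.13 and -0.89), so the numbers were not taken to pair the libraries. With the replicate block Kdm5c changed by -1.73 and Kdm6a by -0.87 at day 7 against day 0, and no call of either gene changed. Depth limits Kdm6a, with 30 reads in a day 7 library.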
